A study of Mus musculus with 6 samples.

Results

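The transcripts described here encode 10 mouse enzymes that remove superoxide and peroxides: catalase (Cat), the superoxide dismutases Sod1 and Sod2, the glutathione peroxidases Gpx1 and Gpx4, and the peroxiredoxins Prdx1, Prdx2, Prdx3, Prdx5 and Prdx6. They were taken by gene symbol from a table of 25628 symbols, and all 10 were present and passed the filter on low counts together with 14158 symbols in all. The set was chosen by enzyme family, with the CPM and log2 fold changes of doxycycline against untreated libraries already in view. Their values in that comparison are therefore given as a description, and the adjusted p-values place each gene within the whole table rather than test the set. The cells were TgSpi1 mouse erythroleukaemic blasts of bone marrow origin (labelled 722), which overexpress the transcription factor PU.1 from Spi1, grew with erythropoietin and carried a doxycycline-inducible shRNA against Spi1. Untreated cultures were compared with cultures given doxycycline for 48 h, with 3 libraries of poly(A) RNA per group, numbered 1 to 3 in each. The labels name a single leukaemia and list no culture given doxycycline without the shRNA, so effects of the drug itself and of the shRNA cannot be told apart. Total counts lay between 78926663 and 101276319 per library.

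Superoxide, which leaks from the respiratory chain or is made by oxidases, is converted to hydrogen peroxide by the superoxide dismutases. Hydrogen peroxide is then broken down by catalase, mostly in peroxisomes, by glutathione peroxidases at the expense of glutathione, or by peroxiredoxins, whose active-site cysteine is mostly restored by thioredoxin. Red cells and their precursors carry large amounts of catalase, peroxiredoxin 2 and glutathione peroxidase 1, because haemoglobin releases superoxide as it oxidises.

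Spi1, the target of the shRNA, stood at 366 ± 43.8 CPM (counts scaled to a common library size with edgeR's TMM factors) in untreated and 75.8 ± 11.998 CPM in doxycycline libraries (SD, n = 3 each), with a log2 fold change of doxycycline over untreated of -2.27 (SE 0.17). Among the 10 enzymes Cat was lower with doxycycline by a factor of about 4.06, whereas the other 9 had log2 fold changes between -0.39 for Gpx1 and 0.25 for Gpx4. At an adjusted p under 0.05 in edgeR's quasi-likelihood test, 1 of the 10 was lower and none was higher. Of all genes tested, 2.59% passed by this rule, 2.18% lower and 0.417% higher. At an unadjusted p under 0.05 the counts for the 10 enzymes were also 1 lower and 0 higher, beside 9.56% and 5.86% of all genes. DESeq2 called 1 lower and 0 higher, beside 5.1% and 2.06%. With the replicate number as a block in the fit, which lowered the spread against which a difference is judged, 2 of the 10 were lower and 0 higher, beside 25.8% of all genes (15.6% lower and 10.3% higher). In that fit 2 were lower and 1 higher at an unadjusted p under 0.05, beside 21.2% and 17.1% of all genes. The median log2 fold change was 0.09 for the 10 enzymes and 0.01 for all genes.

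**Figure D1:**
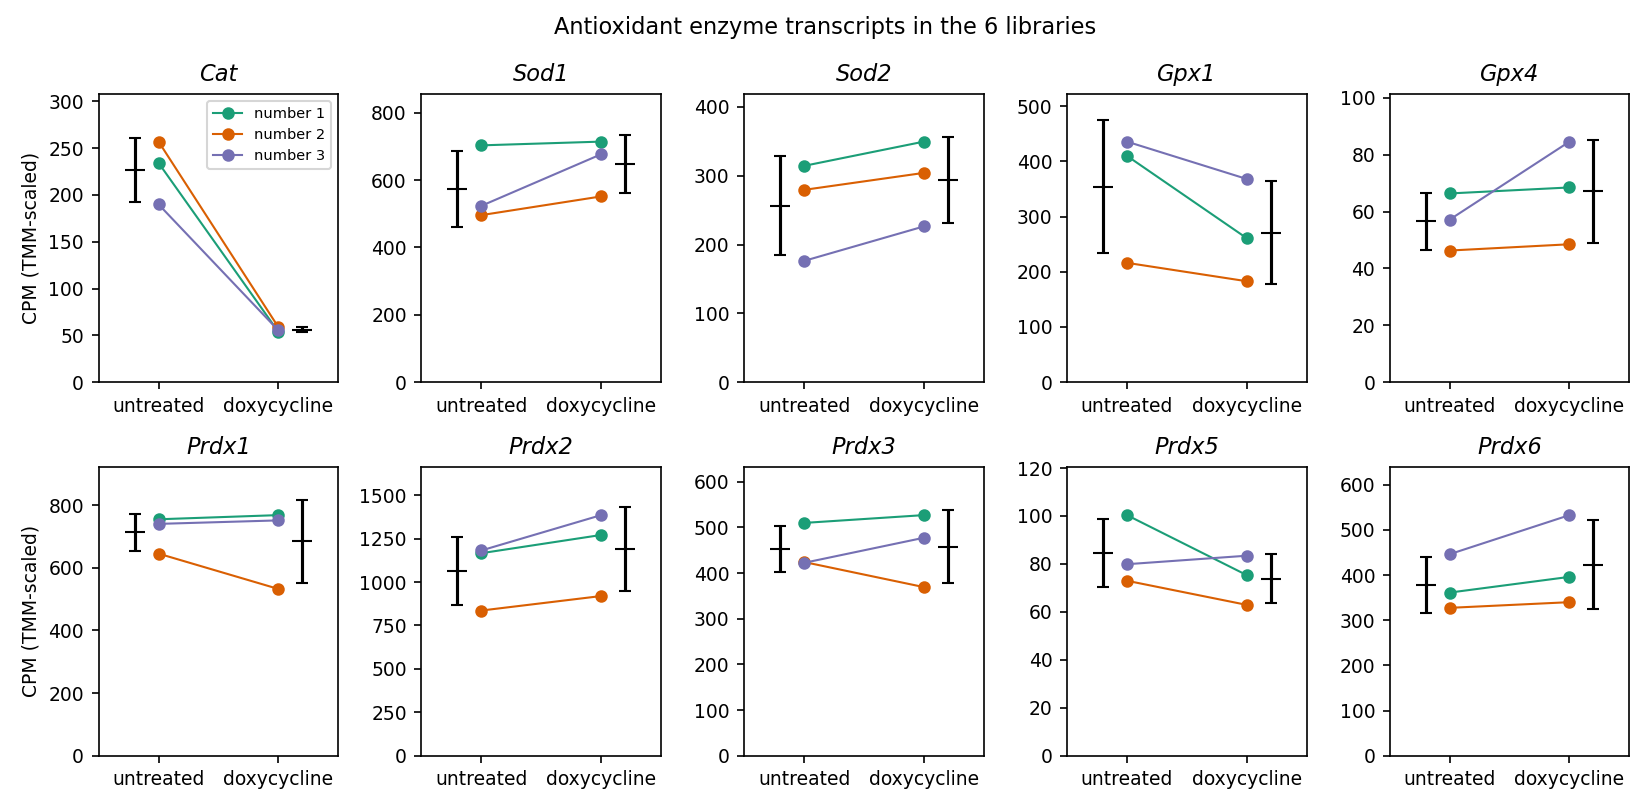
Expression of the 10 enzymes in the 6 libraries, in CPM on axes that start at 0, with points joined for libraries of equal replicate number and black bars for the group mean and SD (n = 3). Cat drops from 190 CPM or more to 58.8 CPM or less in every pair, while the groups of the other 9 genes overlap.

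Catalase, a haem enzyme that turns hydrogen peroxide into water and oxygen, was the member with the large difference. Cat (ENSMUSG00000027187.10, protein coding, chromosome 2 from 103453849 to 103485160 on the minus strand, GRCm38) stood at 234, 257 and 190 CPM in untreated libraries 1, 2 and 3 and at 53.8, 58.8 and 55.3 CPM in doxycycline libraries 1, 2 and 3. Every untreated library was above every doxycycline library, and the doxycycline libraries lay closer together than the untreated ones. The mean went from 227 ± 34.1 to 56.0 ± 2.56 CPM (SD, n = 3 each), which is 24.7% of the untreated level. Its log2 fold change of doxycycline over untreated was -2.02 (SE 0.15, adjusted p = 0.0030 in edgeR) and -2.12, -2.13 and -1.78 within replicate numbers 1, 2 and 3. Of the 10 enzymes 1 had groups that did not overlap, beside 20.6% of all genes (11.7% lower and 8.88% higher with doxycycline). By log2 fold change Cat ranked 236 from the bottom among the 14158 genes. Leaving out a single library gave log2 fold changes between -2.13 and -1.92 with edgeR adjusted p between 0.0070 and 0.041. In these bulk libraries, fewer cells that hold a transcript and less of it per cell cannot be told apart.

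Because Cat was the member that fell in both fits, the sequence before its start is shown as context for the gene. It runs from 250 to 8 bases before the RefSeq start (GRCm38.p6, chr2:103485161-103485403, minus strand, printed 5′ to 3′) and holds no annotated exon. Capitals mark matches on either strand to the 5 motifs searched.

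Cat: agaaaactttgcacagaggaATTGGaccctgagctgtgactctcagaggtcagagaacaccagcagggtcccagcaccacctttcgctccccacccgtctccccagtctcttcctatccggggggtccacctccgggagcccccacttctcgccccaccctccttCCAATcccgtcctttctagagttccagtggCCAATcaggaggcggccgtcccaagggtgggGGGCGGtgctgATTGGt

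A core bound by PU.1 was searched as GAGGAAG. The core of other ETS factors was searched as CGGAAG, the GATA factor motif as AGATAA, the NF-Y motif as CCAAT and the Sp1 motif as GGGCGG. They do not overlap one another in this window. The Cat window held CCAAT at 4 places, of which 2 were on the opposite strand as ATTGG, and GGGCGG at 1 place. Of 32851 promoter windows of the same length, 33.3% held CCAAT at least at 1 place, 0.798% held it at 4 or more, and 31.8% held GGGCGG. The strings searched for PU.1, other ETS and GATA factors were in 10.2%, 13.0% and 9.80% of all windows. None of them was in these 243 bases on either strand. Shorter or variant forms were not searched, so their share of windows is not known. The Cat window does hold GAGGAA on the printed strand and AGGAAG on the opposite strand, so a PU.1 or ETS core is not shown to be absent. A match is a run of letters and no binding was measured.

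Positions of the other members are those of GENCODE M21 on GRCm38, and all are protein-coding genes. The superoxide dismutases, which make the hydrogen peroxide that the other enzymes remove, did not pass the test. Sod1 (chr16:90220754-90226329, plus strand), the copper-zinc enzyme of the cytosol, stood at 703, 496 and 524 CPM in untreated and at 714, 552 and 677 CPM in doxycycline libraries 1, 2 and 3. The groups overlapped, with a log2 fold change of 0.17 (SE 0.18, adjusted p = 0.75 in edgeR). Sod2 (chr17:13006846-13040063, plus strand), the manganese enzyme of mitochondria, stood at 314, 279 and 176 CPM untreated and at 349.6, 304 and 226 CPM with doxycycline. It differed by 0.19 on the log2 scale (SE 0.25, adjusted p = 0.81 in edgeR), and library 3 was the lowest of each group. Each of these genes was higher with doxycycline within all 3 replicate numbers, with log2 fold changes between 0.02 and 0.37 for Sod1 and between 0.12 and 0.36 for Sod2. With the block neither passed (edgeR adjusted p = 0.20 for Sod1 and 0.11 for Sod2). The 95% intervals without the block were -0.32 to 0.67 for Sod1 and -0.50 to 0.89 for Sod2 on the log2 scale.

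The glutathione peroxidases are selenoproteins: a UGA codon inside the reading frame, written TGA in DNA, is read as selenocysteine at the active site. The annotated codons of Gpx1 (transcript Gpx1-201, codon 47, chr9:108339451-108339453, plus strand) and Gpx4 (transcript Gpx4-201, codon 129, chr10:80054737-80054739, plus strand) are shown with 12 coding bases on each side, from the GENCODE M21 transcripts on GRCm38, with the selenocysteine codon in capitals.

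Gpx1: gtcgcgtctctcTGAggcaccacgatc
Gpx4: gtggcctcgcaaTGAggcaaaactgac

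Gpx1 (chr9:108338903-108340343, plus strand), which reduces hydrogen peroxide in the cytosol and mitochondria, was the other member that was lower within all 3 replicate numbers. It stood at 409.9, 216 and 436 CPM in untreated libraries 1, 2 and 3 and at 261, 183 and 368 CPM with doxycycline. The groups overlapped, since untreated library 2 was below 2 of the doxycycline libraries. Without the block the log2 fold change came to -0.39 (SE 0.33, adjusted p = 0.68 in edgeR), and -0.38 (SE 0.10, edgeR adjusted p = 0.023) with the replicate number as a block. Within numbers 1, 2 and 3 it was -0.65, -0.24 and -0.24. The call with the block rested on number 1: without it the value was -0.23 (edgeR adjusted p = 0.30), and without number 2 or 3 it was -0.44 or -0.45.

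Gpx4 (chr10:80047166-80056439, plus strand), which reduces lipid peroxides within membranes and so restrains ferroptosis, stood at 66.4, 46.3 and 57.2 CPM untreated and at 68.5, 48.5 and 84.6 CPM with doxycycline. Doxycycline library 3 was the highest of the 6, and the others overlapped between the groups. On the log2 scale the groups differed by 0.25 (SE 0.24, adjusted p = 0.72 in edgeR, and 0.18 with the block).

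**Figure D2:**
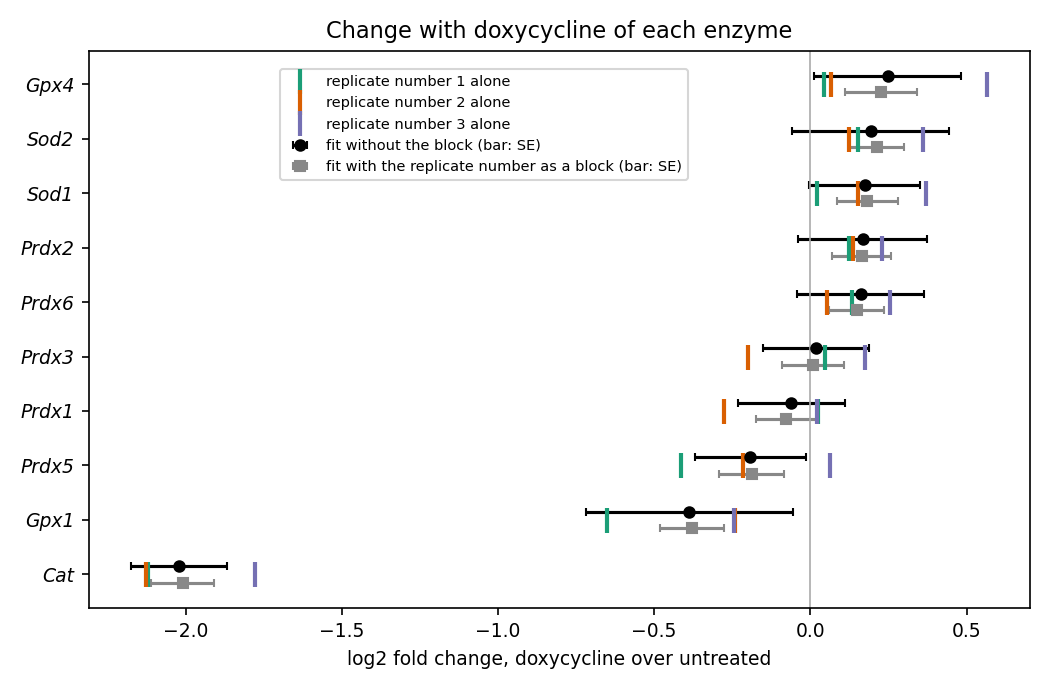
Log2 fold change of doxycycline over untreated for each enzyme in the fit without the block (black points, bars are SE) and with the replicate number as a block (grey squares, bars are SE), with the value of each replicate number alone as coloured ticks. Cat stands at -2.02 and the next lowest, Gpx1, at -0.39.

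The 5 peroxiredoxins, which made up most of the counts of the set, did not pass in either fit. Prdx2 (chr8:84969587-84974834, plus strand), the typical 2-Cys peroxiredoxin of red cells, was the member with the most counts and ranked 64 by CPM among all genes tested. It stood at 1166, 836 and 1182 CPM in untreated and at 1271, 919 and 1385 CPM in doxycycline libraries 1, 2 and 3. Within each replicate number the doxycycline library was slightly higher, by 0.12, 0.14 and 0.23 on the log2 scale, while library 2 was the lowest of each group. On the log2 scale the groups differed by 0.17 (SE 0.21, adjusted p = 0.79 in edgeR, and 0.23 with the block).

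Prdx1 (chr4:116685544-116700822, plus strand), its widely expressed cytosolic relative, stood at 755, 646 and 741 CPM untreated and at 769, 533 and 752 CPM in the treated group (a log2 difference of -0.06, SE 0.17, edgeR adjusted p = 0.92). Prdx3 (chr19:60864051-60874556, minus strand), the mitochondrial 2-Cys form, stood at 509.9, 424 and 422 CPM untreated and at 527, 369 and 477 CPM with doxycycline (0.02, SE 0.17, edgeR adjusted p = 0.98). For both genes the replicate numbers went different ways, with number 2 lower and numbers 1 and 3 higher with doxycycline. The 95% intervals were -0.54 to 0.42 for Prdx1 and -0.45 to 0.49 for Prdx3.

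Prdx5 (chr19:6906697-6910106, minus strand), an atypical 2-Cys form of mitochondria, peroxisomes and cytosol, stood at 100.4, 73.0 and 79.9 CPM untreated and at 75.3, 62.9 and 83.4 CPM in the treated group (a log2 difference of -0.19, SE 0.18, edgeR adjusted p = 0.71). Prdx6 (chr1:161240112-161251219, minus strand), the 1-Cys form, which also acts on phospholipids, stood at 361, 327 and 446 CPM untreated and at 396, 339.9 and 533 CPM with doxycycline (0.16, SE 0.20, edgeR adjusted p = 0.80). Prdx6 was higher with doxycycline within all 3 replicate numbers, and Prdx5 was lower within numbers 1 and 2 and higher within number 3. With the block the edgeR adjusted p was 0.22 for Prdx5 and 0.25 for Prdx6.

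Summed over the 10 genes, CPM were 4158 ± 517 in untreated and 4166 ± 694 in doxycycline libraries (SD, n = 3 each). The share of this sum that came from Cat was 5.07%, 7.13% and 4.46% in untreated libraries 1, 2 and 3 and 1.199%, 1.74% and 1.19% with doxycycline. The sum thus kept its size while the share of catalase differed without overlap between the groups. These sums follow Prdx2, Prdx1 and Sod1, which have the most counts, and say little of the less abundant members.

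Levels of different genes can be compared only per length, here as CPM per kilobase of annotated exon (the union of exons in GENCODE M21's basic set). In untreated libraries the order was Sod1 (896 ± 175 CPM per kilobase), Prdx2 (572 ± 105), Gpx1 (330.1 ± 112), Prdx3 (306 ± 33.8), Prdx1 (281 ± 23.4), Prdx6 (151 ± 24.5), Cat (86.9 ± 13.0), Prdx5 (58.3 ± 9.84), Gpx4 (44.5 ± 7.90) and Sod2 (43.8 ± 12.3; SD, n = 3 each). The ranges of Gpx1, Prdx3 and Prdx1 overlapped, as did those of Prdx5, Gpx4 and Sod2. Cat ranked 7 of 10 untreated and 10 of 10 with doxycycline, at 21.4 ± 0.979 CPM per kilobase. Its highest doxycycline library (22.5) was then below the lowest value of any other member in that group, 38.1 for Gpx4. The place of Sod2 rests on an exon union of 5861 bases, and a shorter annotated end in use would raise its level per kilobase.

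The values of each library were in view when the genes were chosen, so differences between the replicate numbers are given as a description too, with the adjusted p of the replicate terms in the fit with the block to place each gene within the whole table. By this measure 7 of the 10 enzymes differed between numbers at an edgeR adjusted p under 0.05, where 43.3% of all genes did. The same shared deviation of equal numbers is what the pairing was taken from. What the numbers mark is not given in the labels. Gpx1 differed most, with means over both groups of 335, 199 and 402 CPM in numbers 1, 2 and 3 (a 2.01-fold span, edgeR adjusted p = 8.16e-04). Sod2 followed another order, with 332, 292 and 201 CPM (1.65-fold, edgeR adjusted p = 0.0019). Prdx6 (edgeR adjusted p = 0.0074), Prdx2 (0.0080), Gpx4 (0.018) and Sod1 (0.036) also passed, and Prdx1 passed narrowly (0.049995). The means of 8 of the 10 genes were lowest in number 2, the exceptions being Cat and Sod2, which were lowest in number 3. How many of all genes were lowest in number 2 was not computed, so this count is not read as particular to the enzymes. For Cat (edgeR adjusted p = 0.21), Prdx3 (0.063) and Prdx5 (0.086) no difference between numbers passed. The count of 7 depended on single libraries: it was 2 without doxycycline replicate 1, 2 without doxycycline replicate 2, 3 without untreated replicate 1 and 4 without untreated replicate 2.

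**Figure D3:**
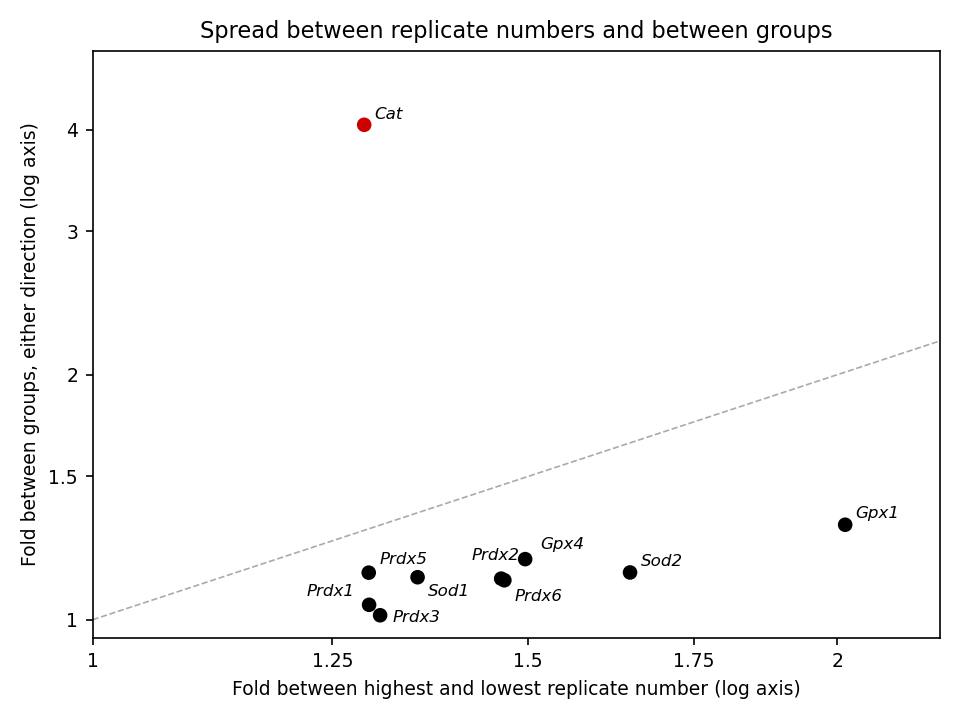
Fold between the highest and the lowest replicate number (horizontal, log axis, means over both groups) against fold between the groups in either direction (vertical, log axis) for the 10 enzymes, with the dashed line where both are equal and Cat in red as the gene with an adjusted p under 0.05 between groups. Cat lies above the line at 1.29-fold and 4.06-fold, and the other 9 genes lie below it. A span from the highest to the lowest number is not the same measure as a fold between group means. It can exceed that fold even where the numbers do not differ. The share of all genes below the line was not computed, so nothing particular to these enzymes is read from it.

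Genes that supply or control these enzymes were examined in 7 lists drawn up from general knowledge with earlier results of these data known. Together they held 118 genes, of which 105 were tested, 0 were higher and 7 lower (edgeR adjusted p under 0.05), beside 0.417% and 2.18% of all genes. With the block 26 were higher and 18 lower, beside 10.3% and 15.6% of all genes. DESeq2 without the block called 5 higher and 10 lower (2.06% and 5.1% of all genes), and at an unadjusted edgeR p under 0.05 there were 16 higher and 14 lower (5.86% and 9.56%). These shares are the background for the counts of each list, and nothing particular to a list is read from them. Among other enzymes of the same families, Prdx4, the peroxiredoxin of the endoplasmic reticulum, stood at 63.2 ± 20.4 and 68.9 ± 27.2 CPM. Ccs, the copper chaperone that loads Sod1, stood at 37.4 ± 5.64 and 37.8 ± 4.19 CPM (SD, n = 3 each), and neither passed in either fit.

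In the thioredoxin and glutaredoxin system, which restores peroxiredoxins, 0 of 18 tested genes were higher and 1 lower without the block, with 5 higher and 3 lower with it (10.3% and 15.6% of all genes) and a median of 0.19. Srxn1, sulfiredoxin, which repairs overoxidised 2-Cys peroxiredoxins, rose with the block from 98.8 ± 6.89 to 148 ± 15.01 CPM (log2 fold change 0.58, edgeR adjusted p = 0.0011, and 0.080 without it). The thioredoxin reductase Txnrd2 of mitochondria (0.54) and its relative Txnrd3 (0.49) also rose with the block, and Txndc12, a thioredoxin-like protein of the endoplasmic reticulum, fell (-0.52). The gene lower without the block, Sesn3, a sestrin, is named after its values were seen and went from 1.004 to 0.256 CPM.

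Of 23 tested genes of glutathione synthesis and use 0 passed without the block. DESeq2 called 2 higher and 1 lower, and 8 were higher and 1 lower at an unadjusted edgeR p under 0.05. With the block 10 were higher and 2 lower, where 10.3% and 15.6% of all genes were, and the median was 0.30. Slc7a11, the cystine importer that feeds glutathione synthesis, stood at 25.7 ± 4.19 and 55.2 ± 20.9 CPM (block log2 fold change 1.05, edgeR adjusted p = 4.3e-04). Chac1, which degrades glutathione, rose with the block as well (0.99), as did Hagh, a glyoxalase (0.70), whereas Gstt1, a glutathione transferase, fell from 32.5 ± 7.79 to 16.8 ± 3.45 CPM (-0.94; SD, n = 3 each).

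NADPH drives the reduction of both glutathione and thioredoxin. Of 18 tested genes of its supply 0 were higher and 2 lower without the block, and 3 were higher and 4 lower with it (10.3% and 15.6% of all genes). Nnt, the mitochondrial transhydrogenase, fell from 36.0 ± 2.82 to 17.9 ± 0.616 CPM (SD, n = 3 each; log2 fold change -1.01, edgeR adjusted p = 0.018, and up to 0.098 when untreated replicate 1 or 2 or doxycycline replicate 1 or 2 was left out). With the block Idh1, the cytosolic and peroxisomal isocitrate dehydrogenase (-0.97), and Pgd of the pentose phosphate pathway (-0.67) fell, and Mthfd2, a mitochondrial folate enzyme (0.57), rose. The second gene lower without the block was Aldh1l1, a folate enzyme, named after its values were seen, from 0.745 to 0.112 CPM. The median of this list was -0.01.

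Of 21 tested NRF2 and FOXO factors and targets, a list that includes factors known to act on antioxidant genes, 0 were higher and 1 lower without the block, with 7 higher and 2 lower with it (10.3% and 15.6% of all genes) and a median of 0.22. Cited2, a CBP-binding coregulator, fell from 44.3 ± 2.68 to 17.9 ± 2.26 CPM (SD, n = 3 each; log2 fold change -1.31, edgeR adjusted p = 0.014, and up to 0.070 without untreated replicate 1 or 2 or doxycycline replicate 1). With the block Gadd45a, a stress gene (1.01), and Blvrb, biliverdin reductase B (0.56), rose, and Nfe2, a haematopoietic relative of NRF2, fell (-0.41). Of 16 tested genes of selenoprotein synthesis and small selenoproteins 0 passed without the block, by DESeq2 or at an unadjusted edgeR p under 0.05. With the block Sephs1, a relative of selenophosphate synthetase, was higher (0.28), and Selenos (-0.34) and Secisbp2, which binds the selenocysteine element of these mRNAs (-0.40), were lower.

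The NADPH oxidase of phagocytes makes superoxide. Of its 7 tested genes 0 were higher and 3 lower without the block, 5 were lower with it (15.6% of all genes), and the median was -1.12. Rac2, the GTPase that activates the oxidase, fell from 600.4 ± 15.7 to 307 ± 24.5 CPM (log2 fold change -0.97, edgeR adjusted p = 0.014; SD, n = 3 each), and Rac1 fell too (-0.64, edgeR adjusted p = 0.044). Without the block these calls depended on single libraries: the edgeR adjusted p reached 0.078 for Rac2 (without untreated replicate 1 or 2 or doxycycline replicate 1) and 0.19 for Rac1 (without any one library). Cyba, the membrane subunit p22phox, fell with the block (-1.40). Cybb, the catalytic subunit, was near the limit of detection at 0.378 and 0.169 CPM, and did not pass.

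**Figure D4:**
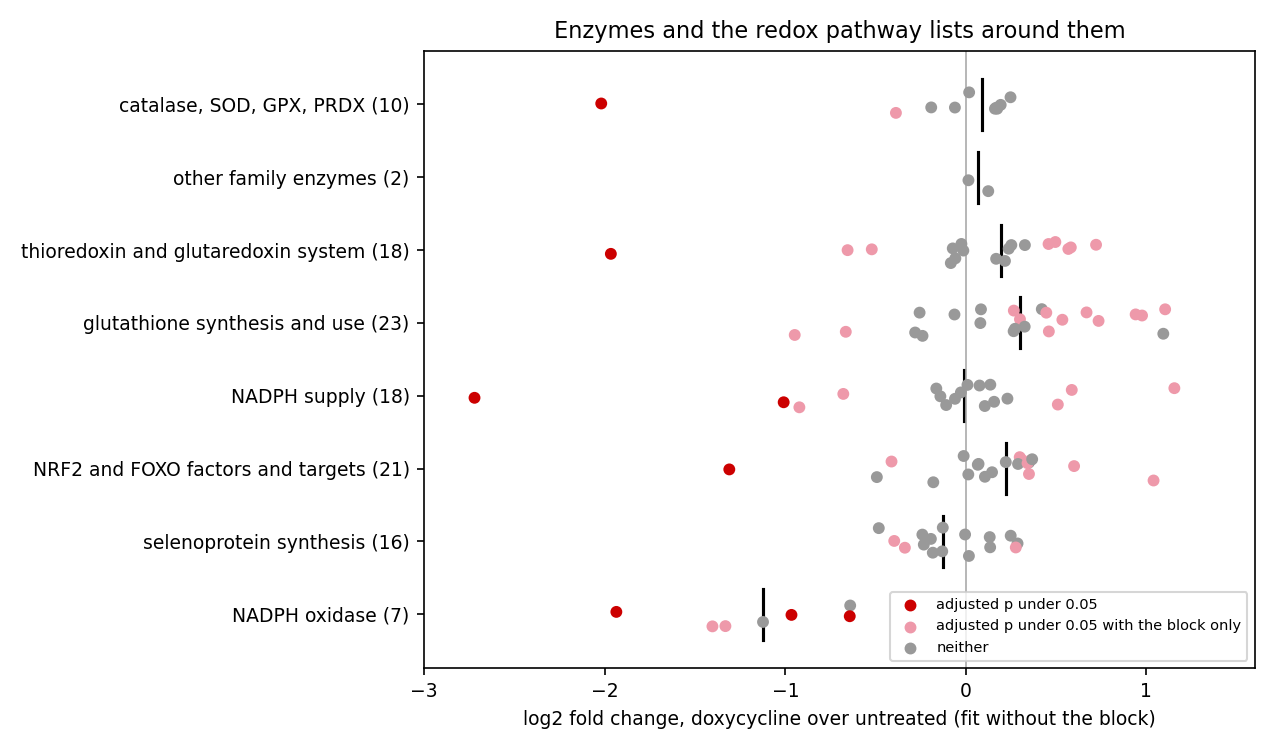
Log2 fold change of doxycycline over untreated for the 10 enzymes and the 7 lists around them, each point a tested gene, black lines the medians and the number of tested genes in brackets. Red points had an adjusted p under 0.05 without the block, pink points with the block only, and all 7 red points of the lists are below 0, as is Cat.

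The labelled erythroid identity was checked on 8 markers, all of which were detected in every library and summed to between 1420 and 2019 CPM untreated and between 1381 and 2387 CPM with doxycycline. Monocyte and macrophage markers (5 of 8 in the table) summed to between 2.80 and 3.16 CPM untreated and between 1.02 and 1.51 CPM with doxycycline. Megakaryocyte markers (6 of 6 in the table, with Pf4 the most abundant) summed to 63.9 to 299 CPM untreated and 37.1 to 157 CPM with doxycycline, and mast cell and basophil markers (4 of 5) to 4.83 to 68.5 and 8.77 to 51.5 CPM. Lymphocyte markers (7 of 9) summed to 1.44 CPM or less and stromal and endothelial markers (5 of 6) to 0.433 CPM or less in every library. No marker in the table was at 0 in all libraries. Neutrophil markers (8 of 8) summed to between 0.238 and 43.2 CPM untreated and between 0.0878 and 11.2 CPM with doxycycline, with the highest sum in untreated replicate 2. In replicate number 1 this sum was 0.238 CPM untreated and 0.0878 CPM with doxycycline. In that treated library Mpo, S100a8, S100a9, Ltf, Camp and Ngp were at 0, Elane at 0.011 and Prtn3 at 0.0768 CPM. Cat in replicate number 1 went from 234 to 53.8 CPM. The part of the neutrophil, megakaryocyte, mast cell and macrophage markers in the Cat result was not tested.

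Some counts may be shared with other genes, because libraries of this kit carry no strand information. In GENCODE M21 Sod1 overlaps Scaf4, Prdx2 overlaps Rnaseh2a and Junb, and Prdx5 overlaps Trmt112, each on the opposite strand, and each partner had a lower median count than the enzyme. The table also holds a processed copy, Prdx2-ps1, with between 1831 and 4084 counts per library, so the split of reads between it and Prdx2 is uncertain. Cat, Gpx1, Gpx4, Sod2, Prdx1, Prdx3 and Prdx6 overlap no other annotated gene.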

How the data were processed

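Poly(A) RNA libraries (Illumina TruSeq RNA v2, per the labels' protocols) were deposited as a single table of raw counts, with a row per gene symbol and a column per library. As tools and builds the submitters' processing notes name STAR, bcl2fastq 2.17.1.14, DESeq2, GRCm38 and mm10, without roles. The counter, its annotation and its strand setting were not given in these sources. The smallest value of every column was 1, so 1 appears to have been added to each deposited count. Values were tested as deposited, and marker sums were taken after removing it. The 6 columns were matched to samples by name, and groups come from the titles.

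Differences were tested two-sided with the quasi-likelihood F test of edgeR (version 4.0.16, with limma 3.58.1 under R 4.3.3), after filterByExpr and TMM scaling, with the group alone in the model. P-values were adjusted by Benjamini-Hochberg over all 14158 genes tested, at 0.05. The SE is the size of the log2 fold change over the root of F, and 95% intervals use 4 residual degrees of freedom. Pair values use log2 CPM with a prior count of 2. A second fit took the replicate number as a block, which left 2 degrees of freedom. Same-numbered libraries deviated together from their group means (correlations 0.77, 0.74 and 0.72), which is where the pairing comes from, since the labels do not give it. DESeq2 1.42.0 was an alternative. The scripts were tested on simulated data. The chi-square per gene between libraries was 145 or more, so none was a copy. The labels call the libraries biological replicates without saying whether the cultures were separate, so p-values measure only the spread between these samples.

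The enzymes and lists were chosen with earlier results of these data known. Named genes are the 10 enzymes, Spi1 and, per list, up to 4 members with the smallest block adjusted p under 0.05 at a mean of at least 5 CPM, or else the 2 of highest CPM. Promoter sequences are RefSeq's (GRCm38.p6), where 9 of the 10 enzymes had an entry, and gene positions are GENCODE M21's (GRCm38). Of the listed genes, Sod3, Gpx2, Gpx5, Gpx6, Gpx7, Gpx8, Adgre1, C1qa, C1qb, Tpsb2, Cd4, Cd8a and Cdh5 are not analysed here. A gene of the NADPH oxidase list is counted in that list but not reported here by name.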

Additional observations from a re-analysis of the deposited data

How the results depend on the processing

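Cat kept its direction and its call in each alternative run. The count of enzymes called lower was 2 with the replicate block and 2 with DESeq2 and the block, 1 without any single library, and 1 to 3 when a replicate number was left out of the block fit, an alternative chosen after seeing the data. None was called higher. Of all genes, 59 were higher and 308 lower, against 1452 and 2206 with the block, 1436 and 1966 with DESeq2 and the block, 291 and 722 with DESeq2 alone, and 4 and 62 without a filter on low counts. Leaving out a library gave 0 (without untreated replicate 2) to 26 (without untreated replicate 3) higher and 35 (without doxycycline replicate 1) to 242 lower (without untreated replicate 3).

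The count of enzymes that differed between replicate numbers was 2 to 10 without a single library, an alternative also added after seeing the data, and 5 to 7 under the other scalings and filters. Small log2 fold changes turned sign without 1 library. The ranges were -0.018 to 0.39 for Sod2 (turned without untreated replicate 3), -0.15 to 0.092 for Prdx1 (without untreated replicate 1 or doxycycline replicate 2), -0.095 to 0.15 for Prdx3 (without untreated replicate 2 or 3 or doxycycline replicate 1) and -0.029 to 0.30 for Prdx6 (without doxycycline replicate 3). They were -0.21 to 0.39 for Prdx4 (without untreated replicate 3 or doxycycline replicate 1) and -0.070 to 0.16 for Ccs (without untreated replicate 2 or 3 or doxycycline replicate 1 or 2). In the block fit Prdx1 turned to 0.028 without number 2 and Prdx3 to -0.074 without number 3. None of these turned values passed. The cause was not tested. Of the other named genes' alternatives, 265 kept their call, 43 gained it and 24 lost it.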
